A study of Mus musculus with 6 samples.

Results

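Alveolar type I cell markers were followed in sorted mouse lung cells through 10 genes, Pdpn, Ager, Aqp5, Hopx, Akap5, Clic5, Rtkn2, Emp2, Gprc5a and Sec14l3. They were chosen by name as markers of the flat alveolar cell, and each of the 10 was among the 18193 genes of the array and the 13335 tested. The study purified 2 populations by fluorescence-activated cell sorting and hybridized 3 biological replicates of each to a whole-genome mouse 3' expression array, 1 array per replicate. The E18 group came from lungs at embryonic day 18 and held cells carrying Muc1 with Pdpn, named bipotent progenitors by the series. The adult group held cells positive for Lyz2 and EpCAM from adult lungs, named alveolar type II cells. No treatment or engineered allele was labelled, and strain, sex, pooling of animals and whether Lyz2 was read as a protein or through a reporter were not given in the sources used here. Age and sorted population differ together, so the comparison cannot tell them apart.

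Type I cells are the thin epithelial cells across which gas passes from air to blood, and type II cells are the cuboidal neighbours that secrete surfactant. In the developing lung both arise from distal tip progenitors, and cells late in gestation can carry markers of both types. Type I markers are therefore read as a sign of how far a population leans towards the flat, gas-exchanging cell. They are not exclusive to it: Pdpn is also made by mesothelium, lymphatic endothelium and some fibroblasts, and Aqp5 by glandular and airway cells.

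Values are the log2 of the authors' scaled signal for each probe set, the group of probes that reads 1 transcript. Differences are E18 minus adult on that scale, so positive values are higher in the E18 arrays, and levels of different probe sets are not compared. Median signal per array ranged from 70.2 to 112, and the detection floor, each array's 40th percentile, from 5.40 to 6.10. Both were highest in the third replicates. Their medians were 112 at E18 and 110 in adult, against 70.2 to 92.3 elsewhere, and their floors 6.10 and 6.05, against 5.40 to 5.80. The third replicates of both groups carried poly-A spike-in signals of 13.99 and 14.49 at the median, against 6.60 to 9.63 in the other 4 arrays, and they are treated below as an apparent batch that no label names. The 3' minus 5' signal of Gapdh, a measure of RNA integrity, was 4.62 in adult replicate 1 and 2.23 to 2.63 elsewhere. Of the genes that name the populations, Pdpn was higher in the E18 arrays, while Lyz2, which names the adult population, was lower in the adult arrays (11.28 ± 0.15 against 14.15 ± 0.12, SD, n = 3). Epcam stood at 7.85, 8.50 and 10.68 in adult replicates 1, 2 and 3 and Muc1 at 7.92, 9.14 and 11.55, so adult replicate 3 stood apart from the others in these epithelial genes. Sftpc, the surfactant gene that defines type II cells, was bright in all 6 arrays, from 13.90 to 14.67.

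Most of the type I markers were higher at E18, and 4 of the 10 passed the test. Akap5 was 25.9-fold, Clic5 11.4-fold, Emp2 5.51-fold and Pdpn 4.82-fold higher in the E18 arrays. The E18 cells were sorted on Pdpn, so its part in the counts and the median given here is no independent finding. The share of all tested genes called higher in E18 was 4.57%. For 8 of the 10 markers the lowest E18 array lay above the highest adult array, which was true of 18.8% of tested genes, and the exceptions were Aqp5 and Sec14l3. None of the 10 was called higher in the adult arrays, a call made for 1.41% of tested genes. The median difference of the 10 markers was 2.37, against 0.17 over all genes tested. Lists of other cell types, described below, had medians of 3.64 for mesenchymal, 2.94 for endothelial and 2.21 for mesothelial genes. For erythroid, general epithelial, type II, airway and leukocyte genes they were 1.68, 1.41, 0.60, -0.32 and -1.03. A median of that size was thus not particular to the type I markers. Bulk arrays cannot tell fewer cells of a type from less of the transcript per cell.

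**Figure D1:**
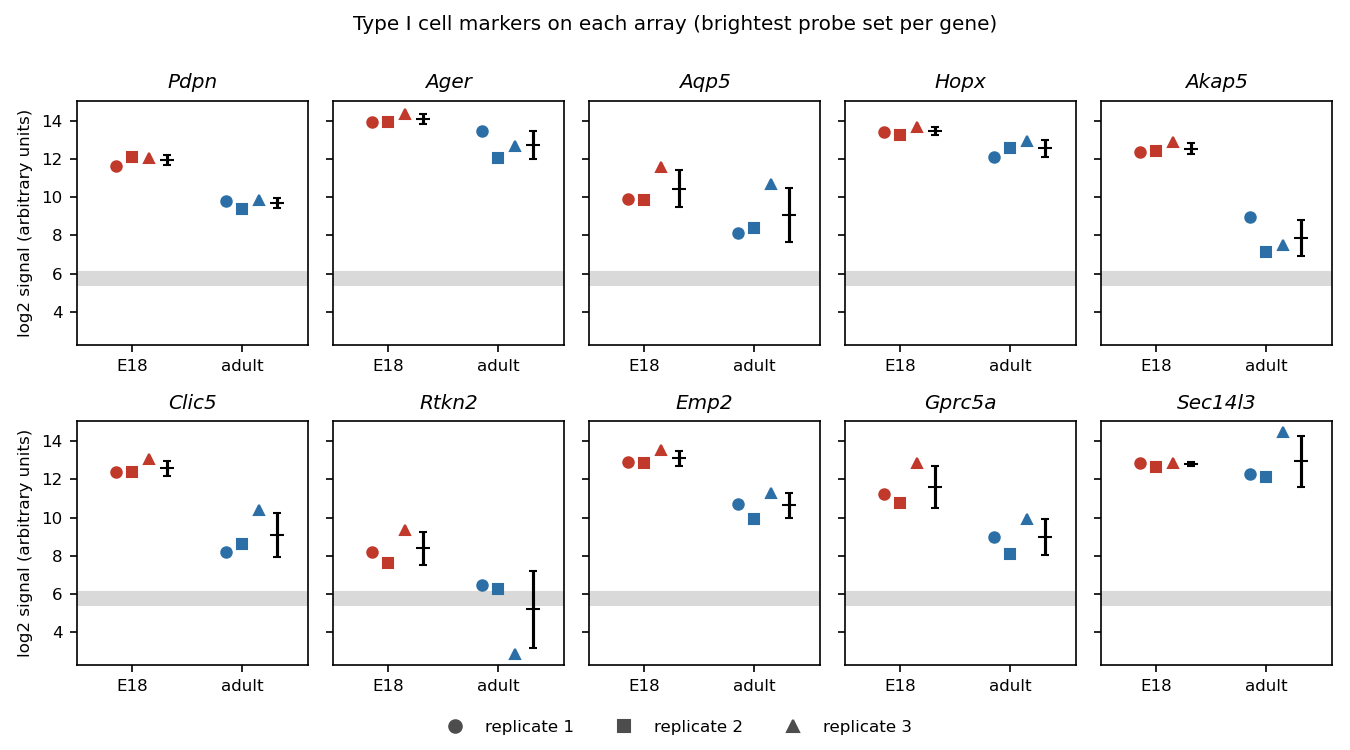
Log2 signal (vertical axis, arbitrary units) of the brightest probe set of each of the 10 markers in 3 E18 arrays (red) and 3 adult arrays (blue), with symbols for replicates 1, 2 and 3, the mean and SD beside each group, and a grey band for the range of the detection floor. Akap5, Clic5, Emp2 and Pdpn separate the groups widely, while Aqp5 and Sec14l3 overlap, with adult replicate 3 lying high.

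The promoter windows of the 4 called markers are shown, beside that of Sec14l3, which was not called. The windows run 5' to 3' on the gene's strand from 250 bases before to 50 after the listed start, from RefSeq on GRCm38.p6, and 9 windows matched 8 of the markers by symbol, all but Rtkn2 and Gprc5a. Capitals mark the GC box, GGGCGG read on either strand, the GC-rich element bound by Sp and Klf factors.
Akap5, chr12:76324641-76324940, plus strand: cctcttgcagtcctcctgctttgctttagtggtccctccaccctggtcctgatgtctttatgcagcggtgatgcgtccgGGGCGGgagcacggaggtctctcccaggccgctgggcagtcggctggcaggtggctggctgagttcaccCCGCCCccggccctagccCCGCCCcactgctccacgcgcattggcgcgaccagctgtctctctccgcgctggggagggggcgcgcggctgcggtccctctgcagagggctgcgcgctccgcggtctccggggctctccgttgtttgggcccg
Clic5, chr17:44188322-44188621, plus strand: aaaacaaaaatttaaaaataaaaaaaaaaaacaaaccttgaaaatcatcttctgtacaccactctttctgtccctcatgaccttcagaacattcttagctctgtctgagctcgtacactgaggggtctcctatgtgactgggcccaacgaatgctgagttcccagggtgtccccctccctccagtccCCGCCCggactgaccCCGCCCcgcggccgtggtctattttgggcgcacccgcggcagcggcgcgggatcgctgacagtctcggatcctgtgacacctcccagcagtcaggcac
Emp2, chr16:10313919-10314218, minus strand: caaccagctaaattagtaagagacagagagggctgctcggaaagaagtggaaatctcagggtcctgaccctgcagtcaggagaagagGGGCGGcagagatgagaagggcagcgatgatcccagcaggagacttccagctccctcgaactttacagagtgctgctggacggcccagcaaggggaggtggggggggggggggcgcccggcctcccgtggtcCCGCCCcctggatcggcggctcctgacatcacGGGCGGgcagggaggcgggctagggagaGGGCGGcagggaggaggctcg
Pdpn, chr4:143299515-143299814, minus strand: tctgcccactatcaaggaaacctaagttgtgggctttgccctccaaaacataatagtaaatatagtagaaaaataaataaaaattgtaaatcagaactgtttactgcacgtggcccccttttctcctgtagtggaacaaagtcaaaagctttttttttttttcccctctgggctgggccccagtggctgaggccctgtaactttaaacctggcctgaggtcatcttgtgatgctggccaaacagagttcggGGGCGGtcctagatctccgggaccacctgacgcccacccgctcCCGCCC
Sec14l3, chr11:4064603-4064902, plus strand: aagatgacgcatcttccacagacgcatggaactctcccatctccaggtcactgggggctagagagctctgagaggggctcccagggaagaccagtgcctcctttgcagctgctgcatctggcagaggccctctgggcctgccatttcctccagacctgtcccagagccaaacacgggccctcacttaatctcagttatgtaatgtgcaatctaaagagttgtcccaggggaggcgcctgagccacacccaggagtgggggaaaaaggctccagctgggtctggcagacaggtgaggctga
All 4 called markers held at least 1 GC box. So did Aqp5, which was not called and whose window, with 3 matches, is not shown. That made 5 of 9 marker windows, against 35.7% of all 32851 windows. Emp2 had 4 matches, Akap5 3, and Clic5 and Pdpn 2 each, while the windows of Sec14l3, Ager and Hopx had none. Median GC content was 58.3% in the marker windows and 52.7% in all windows, and its part in the GC box share was not tested. TEAD sites (GGAATG), AP-1 sites (TGANTCA) and TATA boxes (TATAAA) were found in 0 of 9 windows, against 14.7%, 7.81% and 13.6% of all windows, and the NKX2-1 core (CAAGTG) in 1, a window of Hopx at chr5:77095218-77095517, against 13.6%. These matches are descriptions of letters and were searched on both strands.

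The CArG box, the element read by serum response factor, occurred in 1.63% of all windows and in 2 of the 9 marker windows, those of Ager and Hopx, and it was added to the search after the windows had been read. The 60 bases around each match are shown with the box in capitals, starting at position -200 from the listed start for Ager and at -83 for the second window of Hopx.
Ager, chr17:34597625-34597684, plus strand: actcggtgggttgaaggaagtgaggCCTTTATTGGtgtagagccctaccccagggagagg
Hopx, chr5:77115172-77115231, minus strand: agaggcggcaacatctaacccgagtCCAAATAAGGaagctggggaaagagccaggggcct
Neither Ager nor Hopx passed the test on its brightest probe set, as given below.

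Among the membrane proteins, Pdpn, a mucin-type glycoprotein of the apical type I surface, had the narrowest adult range of the 10 markers. Its signal was 11.65, 12.14 and 12.08 in the E18 arrays and 9.80, 9.38 and 9.88 in the adult arrays, replicates 1 to 3 in order here and below. The groups did not overlap, and no array stood apart. The difference was 2.27 (SE 0.29, adjusted p = 0.00924), 2.30 in replicates 1 and 2 and 2.20 in the third pair. Pdpn was used to sort the E18 cells, so this difference is no independent finding. The call ended without E18 replicate 1 (2.42, adjusted p = 0.0582) and without E18 replicate 2 (2.18, adjusted p = 0.0747).

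Emp2, a tetraspan membrane protein that is abundant in type I cells, was at 12.91, 12.86 and 13.54 in the E18 arrays and 10.71, 9.95 and 11.27 in the adult arrays. The third replicate was the highest of its group at both ages. The difference was 2.46 (SE 0.40, adjusted p = 0.0171). It was no longer called without adult replicate 2 (2.11, adjusted p = 0.0540) or without E18 replicate 1, 2 or 3 (adjusted p = 0.0857, 0.0820 and 0.0544).

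Ager, the receptor for advanced glycation end products strongly enriched in lung, gave a different answer from each of its probe sets. The brighter one read 13.97, 13.95 and 14.39 at E18 and 13.48, 12.06 and 12.70 in the adult arrays, with adult replicate 1 close to the E18 arrays. Its difference of 1.36 (SE 0.39, 95% interval 0.44 to 2.27) did not pass (adjusted p = 0.0949). The other probe set read 12.67, 12.47 and 13.42 at E18 and 9.95, 10.15 and 10.60 in the adult arrays. There the adult arrays lay close together and far from E18, and the difference of 2.62 (SE 0.36) passed over all probe sets (adjusted p = 0.00995). Without adult replicate 1, which had the high Gapdh 3' to 5' difference given above, the brighter probe set also passed (1.72, adjusted p = 0.0294). Over all alternatives the adjusted p of Ager ran from 0.0141, with its probe sets averaged, to 0.289. The part of RNA integrity in this was not tested.

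Aqp5, the water channel of the apical type I membrane, was at 9.93, 9.84 and 11.57 in the E18 arrays and 8.13, 8.41 and 10.71 in the adult arrays. The third replicate was high at both ages, by 1.69 over the other E18 arrays and by 2.45 over the other adult arrays, and the groups overlapped. With all arrays the difference was 1.36 (SE 0.77, 95% interval -0.43 to 3.15, adjusted p = 0.353). Within replicates 1 and 2 it was 1.62 (adjusted p = 0.0155) and within the third pair 0.86, and with the third replicates as a block the same 1.36 passed (SE 0.30, adjusted p = 0.0492). Without adult replicate 3 it was 2.18 (adjusted p = 0.0320), without E18 replicate 3 0.80 (adjusted p = 0.624) and without adult replicate 1 0.88 (adjusted p = 0.626), so single arrays set its size.

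Gprc5a, an orphan G protein-coupled receptor induced by retinoic acid and enriched in lung epithelium, was at 11.24, 10.78 and 12.87 in the E18 arrays and 8.96, 8.07 and 9.94 in the adult arrays. The groups did not overlap, and the third replicate was again the highest of each. The difference of 2.64 (SE 0.66, 95% interval 1.11 to 4.17) missed the threshold (adjusted p = 0.0612). It passed with the third replicates as a block (SE 0.35, adjusted p = 0.0120), in replicates 1 and 2 alone (2.49, adjusted p = 0.0160) and without adult replicate 3 (3.11, adjusted p = 0.0161), and it was 2.93 in the third pair. Over all alternatives the adjusted p ran from 0.0120 to 0.189.

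Of the cytoplasmic and cytoskeletal markers, Akap5, which anchors protein kinase A and calcineurin beneath the membrane, had the largest difference of the 10 brightest probe sets. Its signal was 12.36, 12.44 and 12.89 in the E18 arrays and 8.96, 7.14 and 7.51 in the adult arrays. Every E18 array was thus more than 3 log2 units above every adult array, and adult replicate 1 was the highest of the adult arrays. The difference was 4.69 (SE 0.49, adjusted p = 0.00504). It passed in each alternative tested here, with adjusted p from 0.00235 to 0.0392, and was 4.35 in replicates 1 and 2 and 5.38 in the third pair.

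Clic5, a chloride intracellular channel protein tied to the cortical actin skeleton, was at 12.37, 12.37 and 13.05 in the E18 arrays and 8.21, 8.63 and 10.42 in the adult arrays. Adult replicate 3 was 2.00 above the mean of the other adult arrays but still below every E18 array. The difference was 3.51 (SE 0.57, adjusted p = 0.0171), 3.95 in replicates 1 and 2 and 2.64 in the third pair. The call ended without adult replicate 2 (3.28, adjusted p = 0.0801), without E18 replicate 1, 2 or 3 (adjusted p = 0.0844, 0.0820 and 0.0593), and with its probe sets averaged (3.04, adjusted p = 0.0862).

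Rtkn2 was the only marker whose brightest probe set lay under the floor on an array. It read 8.21, 7.61 and 9.34 in the E18 arrays and 6.47, 6.24 and 2.85 in the adult arrays. Adult replicate 3 lay under its array's floor of 6.05, and the other adult arrays less than 1 log2 unit above theirs. The difference of 3.20 (SE 0.99, 95% interval 0.88 to 5.52) did not pass (adjusted p = 0.115), and its size rested on that array. It was 1.56 in replicates 1 and 2 (adjusted p = 0.0381), 2.03 without adult replicate 3 (adjusted p = 0.0339) and 6.49 in the third pair, and it was 2.13 once values below the floor were raised to the floor (adjusted p = 0.0430). Over all alternatives the adjusted p ran from 0.0339 to 0.308.

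Hopx, a homeodomain protein that does not itself bind DNA and marks type I cells in the adult lung, differed least among the markers that were higher at E18. The signal was 13.45, 13.26 and 13.68 in the E18 arrays and 12.11, 12.61 and 12.98 in the adult arrays. The groups did not overlap, yet they lay within 2 log2 units of each other in every array. The difference was 0.90 (SE 0.31, 95% interval 0.18 to 1.62, adjusted p = 0.148). Its second probe set gave 0.84 (adjusted p = 0.192). Without adult replicate 3 the brighter probe set passed (1.10, adjusted p = 0.0393), and over all alternatives the adjusted p ran from 0.0393 to 0.453.

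**Figure D2:**
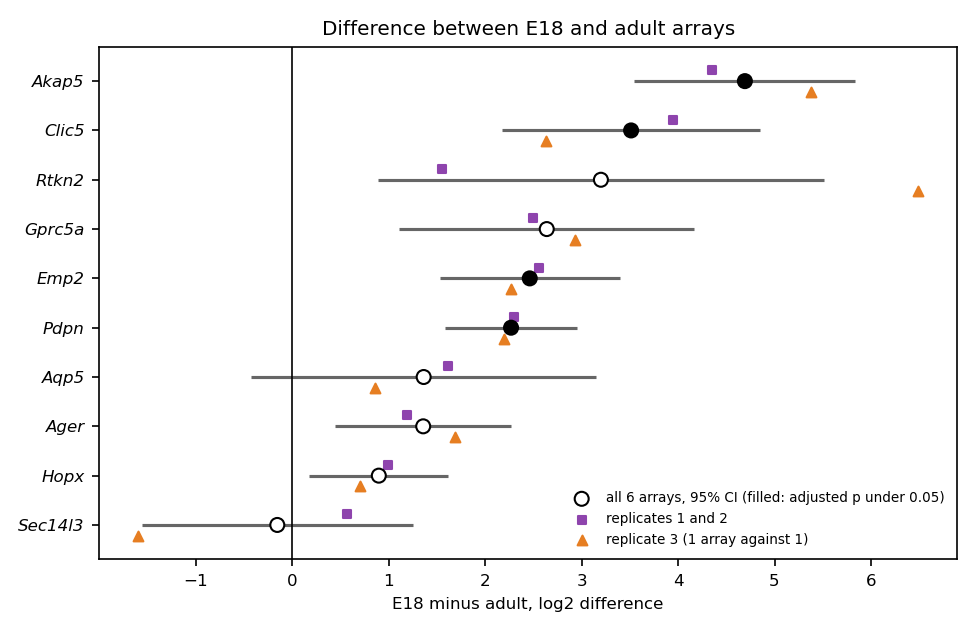
E18 minus adult log2 difference (horizontal axis) of each marker with its 95% confidence interval from limma over 6 arrays, filled where the adjusted p is under 0.05, with the values of replicates 1 and 2 (squares) and of the third pair (triangles). The values run from 4.69 for Akap5 to -0.15 for Sec14l3, and those of replicates 1 and 2 and of the third pair lie farthest apart for Rtkn2 (1.56 and 6.49) and Sec14l3 (0.57 and -1.59).

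Sec14l3, a lipid-binding protein of the Sec14 family, was the 1 marker whose E18 mean was not the higher. It read 12.84, 12.67 and 12.88 in the E18 arrays and 12.26, 12.12 and 14.47 in the adult arrays. The E18 arrays lay within 0.21 of each other, whereas adult replicate 3 was 2.28 above the mean of the other adult arrays and above all E18 arrays. The difference was -0.15 (SE 0.60, 95% interval -1.56 to 1.25, adjusted p = 0.908), a range that holds differences of either sign. It was 0.57 in replicates 1 and 2 (adjusted p = 0.191), -1.59 in the third pair, 0.61 without adult replicate 3 (adjusted p = 0.142) and 0.14 after quantile normalization. Both of its other probe sets were also highest in adult replicate 3, at 14.09 and 14.27, against 10.89 to 12.22 on the other 5 arrays.

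Airway genes moved with Sec14l3 on that array. The list of club, ciliated and basal cell genes, 11 of 14 of them tested, had a summed signal of 120751 in adult replicate 3 and of 20983 to 28703 on the other 5 arrays. Its median departure from each gene's mean was 2.53 there and between -0.88 and 0.08 elsewhere. Foxj1, which marks ciliated cells, was at 11.66 in adult replicate 3 against 7.72 and 6.88 in adult replicates 1 and 2, and Scgb1a1, which marks club cells, at 15.03 against 13.74 and 13.54. The part of these cells in the level of Sec14l3 was not tested.

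**Figure D3:**
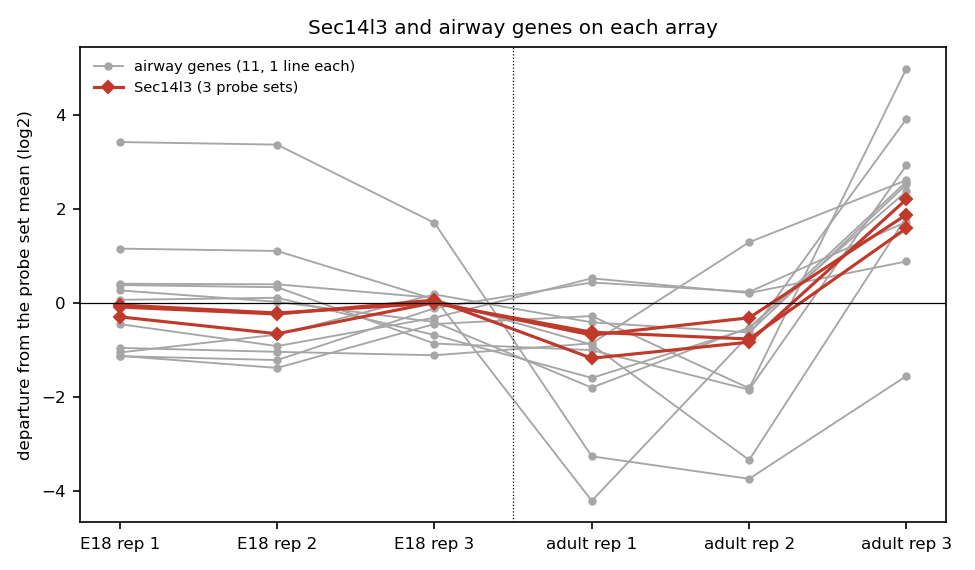
Departure of each probe set from its own mean over the 6 arrays (vertical axis, log2) for the 3 probe sets of Sec14l3 (red) and the 11 tested airway genes (grey, 1 line each). All 3 Sec14l3 lines are highest in adult replicate 3, the array in which the airway list has its highest median departure, 2.53.

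Read by every probe set, the markers gave the same direction within each gene but not the same size. The 10 genes were covered by 21 probe sets, and 20 passed the filter, the exception being a dim one for Clic5 that read under the floor on 4 arrays. Of the 20, 9 were called higher in E18, against 3.05% of all 28104 probe sets tested. These were 3 of Akap5, 2 each of Clic5 and Emp2 and 1 each of Pdpn and Ager. The probe sets of Akap5 gave differences of 4.69, 3.62 and 4.70. For the last of these the adult arrays were all under the floor, so it stood at least 7.06-fold higher in E18. Emp2 gave 2.46, 2.85 and 4.96, the last from a probe set under the floor in all adult arrays (adjusted p = 0.0607) and at least 5.41-fold higher. Clic5 gave 3.51, 3.61 and 2.66 from those that passed the filter, with adjusted p of 0.0172, 0.0464 and 0.0731.

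**Figure D4:**
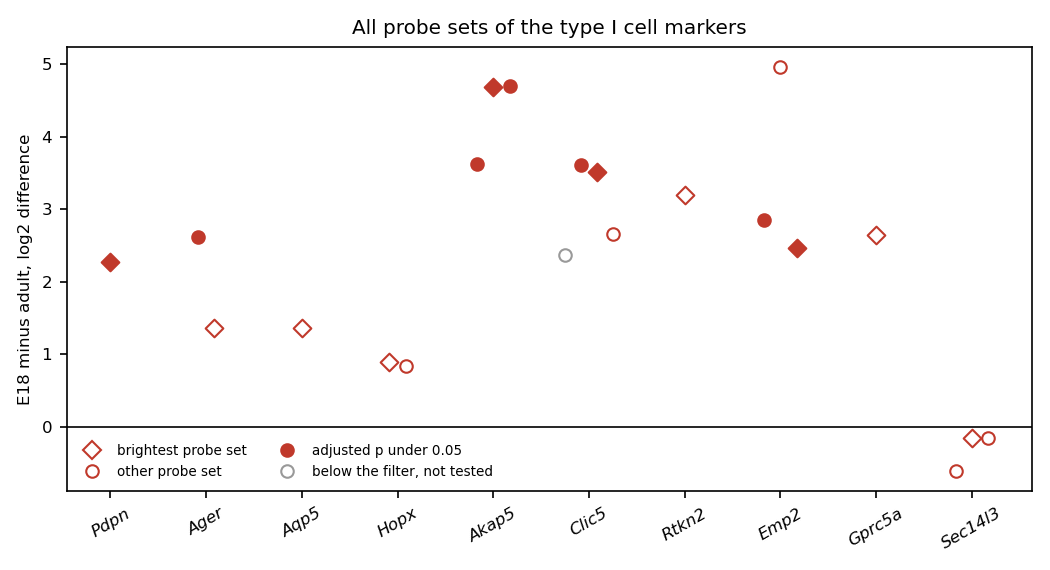
E18 minus adult log2 difference (vertical axis) of all 21 probe sets of the 10 markers (horizontal axis), diamonds for the brightest probe set of a gene, filled where the adjusted p over all probe sets is under 0.05, grey outline where not tested. All points are above 0 except the 3 of Sec14l3, and the 2 of Ager lie apart, at 1.36 and 2.62.

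Within each group the markers also had a common high array. Replicate 3 was the highest E18 array for 9 of the 10 markers, all but Pdpn, and adult replicate 3 the highest adult array for 7, while adult replicate 1 was highest for Ager, Akap5 and Rtkn2. The median marker departed from its own mean by 0.88, 0.67 and 1.74 in the E18 arrays and by -1.10, -1.40 and -0.51 in the adult arrays. Over the 6 arrays the 45 pairs of markers had a median Pearson correlation of 0.76, from -0.62 to 0.97, and the 36 pairs without Sec14l3 ran from 0.16 to 0.97. These are descriptions over arrays that share the group difference and the apparent batch. The spread inside the adult group was wide, with ranges from 0.50 for Pdpn to 3.61 for Rtkn2.

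Which arrays were included set how many markers passed. When adult replicate 1, 2 or 3 was left out, the count was 5, 2 or 8, and the share of all tested genes called higher in E18 was 3.38%, 1.36% or 15.5%. When E18 replicate 1, 2 or 3 was left out, the count was 1, 1 or 2 and that share 0.337%, 0.315% or 2.95%. Among these leave-one-out fits the highest count, 8, came from the one that called the most genes. In replicates 1 and 2 alone 7 of 10 passed, against 16.5% of tested genes, and with the third replicates as a block 6 passed, against 5.21%. The 6 were Akap5, Clic5, Emp2, Pdpn, Gprc5a and Aqp5. Over tested genes the third replicates' departures from their group means correlated by -0.06. A correlation across genes leaves out any shift shared by all genes, so it cannot show whether a batch is present. Under the leave-one-out fits the median difference of the 10 stayed between 2.11 and 2.49.

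Genes of other cell types also differed between the groups, and their course over the arrays was set beside that of the markers. Mesenchymal genes were higher at E18 in 10 of 14 tested, with summed signals of 74067 to 99832 in E18 arrays and 33193 to 48466 in adult arrays. Endothelial genes were higher in 4 of 14 (10345 to 34382 against 4446 to 5617) and mesothelial genes in 4 of 10, Pdpn among them (14484 to 19475 against 2279 to 9844). The share of all tested genes called higher in E18 was 4.57%. In E18 replicate 3, where the type I markers were highest, the mesenchymal, endothelial and mesothelial medians were the lowest of the E18 arrays, at 1.36, 0.26 and 0.69 above each gene's mean. The mesothelial genes were mixed there, since Msln was at its highest, 12.31 against 11.01 and 11.26, and the summed signal of 17234 lay between 14484 in E18 replicate 1 and 19475 in E18 replicate 2. Defining genes of these types were nonetheless present, with Col1a1 at 10.9 to 12.6, Pdgfra at 10.68 to 11.11 and Cdh5 at 9.22 to 11.46 in E18 arrays. Pecam1 was at 6.81 to 8.71 and Wt1 at 6.66 to 7.66, both lowest in E18 replicate 3, whose floor was 6.10. Their part in the marker differences was not tested.

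In the adult group, general epithelial and leukocyte genes separated adult replicates 1 and 2 from adult replicate 3. The epithelial list of 19 tested genes stood at -1.81, -1.67 and 1.45 in adult replicates 1, 2 and 3 and at 0.61 to 0.70 in E18 arrays, with 0 of 19 called. The list of leukocyte and macrophage genes stood at 1.29, 1.25 and -0.09 in the same adult arrays. Its summed signal was 258241, 181763 and 97567 there, and 89298 to 114043 in E18 arrays. Ptprc was at 15.16, 14.32 and 13.81 in the adult arrays and 12.91 to 13.84 at E18. Cd68 was at 10.52, 13.36 and 12.25 against 11.92 to 12.56. Of the list's 21 tested genes, 2 were called higher in adult, Cd2 and Cd28, named after their values were seen. Over all tested genes, 4.57% were called higher in E18 and 1.41% higher in adult. Adult replicate 3, where epithelial genes were highest, lay below E18 replicate 3 for the 4 called markers. The gaps were 5.38, 2.27, 2.20 and 2.64 for Akap5, Emp2, Pdpn and Clic5. Those genes were called on these same arrays, so their separation there is no independent finding. Aqp5 and Sec14l3, whose arrays overlapped, stood at 10.71 and 14.47 in adult replicate 3. Their E18 arrays were at 9.84 to 11.57 and 12.67 to 12.88. Only 3 erythroid genes were tested, and 0 were called. The part of differing cell content was not tested.

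**Figure D5:**
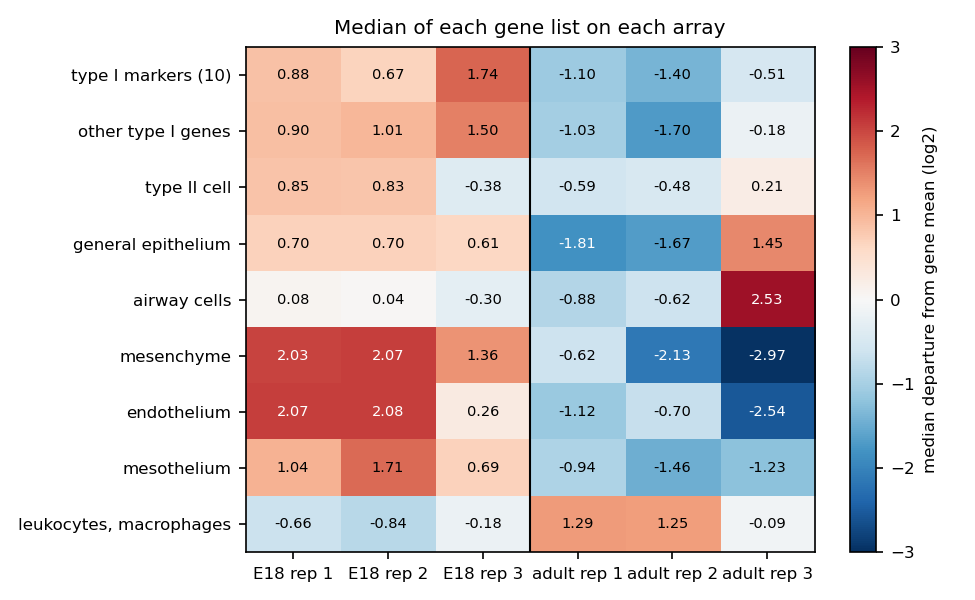
Median departure from each gene's mean (log2, colour and printed value) of the 10 type I markers and of 8 other gene lists (rows) on each of the 6 arrays (columns). The type I markers are highest in E18 replicate 3 (1.74), where mesenchymal and endothelial medians (1.36 and 0.26) are lower than in E18 replicates 1 and 2, and adult replicate 3 is apart in epithelial (1.45) and airway genes (2.53).

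A list of other genes used as type I markers was set beside the 10. Of its 33 tested genes, 13 were called higher in E18 and 0 higher in adult, while 20 missed the threshold. Over all tested genes those called were 4.57% and 1.41%. The median of the list was 2.44. The largest differences among the called genes were those of Col4a4, a basement membrane collagen chain (11.61 ± 0.57 against 7.70 ± 0.76, difference 3.92, adjusted p = 0.00853), Lama3, a laminin chain (3.82, adjusted p = 0.00868), and Agrn, a heparan sulfate proteoglycan (3.82, adjusted p = 0.00303). Tspan8, a tetraspanin (3.75, adjusted p = 0.00303), Ndnf, a secreted neurotrophic factor (3.52, adjusted p = 0.0106), and Cav1, the caveolar coat protein (3.46, adjusted p = 0.00374), followed. All E18 arrays lay above all adult arrays for 20 of the 33, against 18.8% of tested genes. The reverse held for 3 of the 33, against 1349 of all 13335 tested genes. These were Cyp2b10, S100a6 and P2rx4, which did not pass (-3.52, -1.32 and -1.25, adjusted p = 0.0933, 0.0925 and 0.0717) and are named here after their values were seen. In the third pair the median of the list was 1.32, against 2.84 in replicates 1 and 2.

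Of 23 tested type II genes, against a share of 4.57% over all tested genes, 1 was higher in E18, Lyz2 (2.86, SE 0.25, adjusted p = 0.00303), 0 were higher in adult and 22 missed the threshold. The median was 0.60. Sftpc was 14.04 ± 0.14 at E18 and 14.56 ± 0.10 in the adult arrays (-0.52, adjusted p = 0.258), and Fabp5, a fatty acid binding protein, differed by 0.34 (adjusted p = 0.637). The list's median was 1.18 in replicates 1 and 2 and -0.53 in the third pair, so its direction depended on the array pair, while the median of the 10 type I markers was 1.96 and 2.24 in the same pairs.

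Genes whose course over the 6 arrays was most like the median type I marker were Tinagl1, Mid1, Pcdh9, Lama3 and Aff4, with Pearson correlations of 0.999, 0.996, 0.993, 0.990 and 0.989. They are the highest of 13325 genes compared, of which 118 exceeded 0.95. Tinagl1, a matrix protein of basement membranes, was at 10.27, 9.89 and 12.05 in the E18 arrays and 6.66, 5.93 and 7.86 in the adult arrays (3.92, adjusted p = 0.0217). Mid1, a microtubule-associated ubiquitin ligase, differed by 3.22 (adjusted p = 0.0111), whereas Pcdh9 (1.42, adjusted p = 0.135) and Aff4 (0.71, adjusted p = 0.176) did not pass. Of the 10 markers, Emp2 and Gprc5a were nearest that profile (0.988 and 0.982) and Sec14l3 farthest from it (0.14).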

How the data were processed

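RNA from 6 samples of sorted mouse lung cells, 3 E18 and 3 adult, was amplified in 2 rounds, biotin labelled and hybridized to 1 array each, per the labels' protocols. The authors deposited 1 signal intensity per probe set on a linear scale. The submitters' processing notes name MAS5 and Affymetrix Expression Console. Trimmed means without the lowest and highest 2% were 500.003 or 500.004 on every array, which shows the authors' scaling. Values were log2 transformed here with no pseudocount or further normalization.

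Of 45101 probe sets, 34945 had 1 gene symbol in the array's gene table, 932 several, 9160 none listed, and 64 were controls. Each gene was read by its brightest probe set (highest mean log2 over 6 arrays). A gene was tested if it reached its array's 40th percentile on at least 3 arrays, a rank and not a measured background, leaving 13335 of 18193. Groups were compared with limma 3.58.1 (R 4.3.3), two-sided, letting the prior variance follow mean intensity. P-values were adjusted by Benjamini-Hochberg over all genes tested, or over all 28104 probe sets where so stated. Called means adjusted p under 0.05. Lists of genes are described by counts and medians, with no set test. The steps were tested on simulated data. The number of arrays limits the precision, and p-values measure the spread between these samples.

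The markers, the lists and the alternatives were chosen with earlier results of these data known. Named genes were all 10 markers, the genes that name the populations and the 5 genes most like the markers' median profile. From the other type I and the type II lists they were up to 6 called genes by size, or else the 2 brightest. From the lists of other cell types they were up to 2 of the first-written markers. Genes outside this rule are said to be named after their values were seen. The third replicates as a block were an alternative added later. Replicate numbers did not pair the samples, since departures of same-numbered arrays correlated by 0.04, -0.14 and -0.06. The last value leaves out any shift shared by all genes, so it cannot show whether the third replicates form a batch. Their apparent batch rests on the spike-in signals. Their median signals, 112 at E18 and 110 in adult, were also the highest, against 70.2 to 92.3 elsewhere.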

Additional observations from a re-analysis of the deposited data

How the results depend on the processing

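Precision is limited by 3 arrays per group, and calls depended most on which arrays entered. Over the fits that each left out 1 array, genes called ranged from 66 to 2770 around the 798 of all arrays, those higher in E18 from 42 to 2069 around 610, and type I markers called from 1 to 8 around 4. In replicates 1 and 2 only, these counts were 2996, 2195 and 7. With E18 replicates 1 and 2 averaged and counted as 1 sample they were 63, 41 and 1. With the replicate number as a block (replicate block) 492 genes were called, 394 of them higher in E18, and 5 markers. Gprc5a was added and Aqp5 did not pass (adjusted p = 0.123). The labels state no pairing by that number. Scaling moved the median difference of all genes from 0.17 to 0.05 after quantile normalization and to 0.02 with arrays centred on their median. Under each of these 5 markers passed, with 505 and 527 of 13335 genes called higher in E18. The other settings, no filter, a 60th percentile filter, averaged probe sets, single probe sets, floored values, a pseudocount of 16 and no variance trend, gave 4 or 5 markers. Under these settings 514 to 698 genes were called higher in E18, of 10323 to 18193 tested. For single probe sets it was 858 of 28104. No called marker changed direction in any setting, and Akap5 passed in every setting with a test.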

Other observations

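Genes linked to the control of type I fate were set beside the markers. Of 26 tested genes of that list, 4 were higher in E18, 0 were higher in adult and 22 missed the threshold. Over all tested genes, 4.57% were called higher in E18 and 1.41% higher in adult. The median was 2.08. The 4 are named after their values were seen. Wwtr1, which encodes the coactivator TAZ, was at 11.88, 12.01 and 12.41 in E18 arrays and 8.50, 8.70 and 9.78 in adult arrays (3.11, SE 0.40, adjusted p = 0.00917 by limma). Tgfb2, a TGF-beta ligand, differed by 3.73 (adjusted p = 0.00583), Nfib, a nuclear factor I protein of lung maturation, by 3.28 (adjusted p = 0.0335) and Ccn2, a matricellular target of YAP and TAZ, by 3.06 (adjusted p = 0.0481). The list's median was 2.88 in replicates 1 and 2 and 0.45 in the third pair.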
